A study of Mus musculus with 6 samples.

Results

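The 34 genes described here encode enzymes and regulators of cholesterol and fatty acid synthesis in the prostate lobes of WT and Hi-MYC mice. They were chosen by symbol from the 24908 genes of an expression table, which lists them in capitals (SQLE, FASN, SCD1 and so on). The choice was by symbol rather than by level, but earlier results of these data were known when it was made. Of these genes, 18 belong to the sterol branch, 11 to the fatty acid branch, and 5 regulate the pathway (Insig1, Srebf1, Srebf2, Scap and Stard4). With a minimum mean of 1 FPKM (fragments normalised for transcript length and library depth) over the libraries, 33 of the 34 genes remained, among 12361 genes in all. The exception was the fatty acid elongase Elovl6, with a mean of 0.975 FPKM, while the lowest gene retained was Hsd17b7, a sterol reductase, at 1.60 FPKM.

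Bulk RNA-seq was obtained from 6 libraries, 1 for each of the anterior (AP), dorsolateral (DLP) and ventral (VP) prostate lobes of 1 WT and 1 MYC mouse. Both were 12-week-old FVB males on a purified diet, and RNA was taken after the lobes had been dissociated to single cells. The MYC mouse was heterozygous for a human c-MYC transgene under the ARR2Pb promoter, which is active in prostatic epithelium and androgen dependent, and the WT mouse was a littermate without it. With a single mouse per genotype, the effect of the transgene cannot be told apart from any other difference between these mice, and no p-value is given. The error beside a ratio is an exact 95% binomial (Clopper-Pearson) interval from the estimated reads, which covers counting error and nothing between animals. In bulk RNA, fewer cells of a type and less RNA per cell cannot be told apart.

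Cholesterol is built from acetyl-CoA through mevalonate, squalene and lanosterol, and fatty acids are built from the same acetyl-CoA by carboxylation, elongation and desaturation. Both routes are regulated by the SREBP transcription factors, encoded by Srebf1 and Srebf2, which leave the endoplasmic reticulum with the escort protein Scap when sterols are low and are held there by Insig1 when sterols are high. Srebf1 products act mainly on fatty acid genes and Srebf2 products mainly on sterol genes. Prostate epithelium is a secretory tissue whose lipid synthesis responds to androgen.

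Estimated depths ran from 25.4 M reads in WT AP to 50 M in the library labelled MYC AP. By estimate from mean transcript lengths, 31 to 41510 reads lay behind a value of a member (median 555.5). The table has a single Myc row, and whether it also holds reads of the human transgene was not tested. It read 230.0, 200.6 and 226.4 FPKM in WT AP, DLP and VP. In the MYC libraries of the same lobes it read 230.9, 586.1 and 1696 FPKM, so the AP library carried no excess over WT in this row, and MYC AP stands below for the library so labelled. For these mice at this age, the study describes the AP as mostly spared by the transgene. It reports prostatic intraepithelial neoplasia of high penetrance in DLP and VP, and the transgene as most prevalent in VP. The library labelled MYC AP also held 292.5 FPKM of Svs4 and 212.0 FPKM of Svs5, seminal vesicle secretory genes listed at 0 in the 3 WT libraries. MYC DLP held 4.68 and 2.62 FPKM of them, and MYC VP is listed at 0. Luminal keratins were abundant in every library (Krt8, 387.9 to 1292 FPKM), and 7 of 12 adipocyte markers stayed under 0.1 FPKM in all 6 libraries, with Plin1 listed at 0 throughout.

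Promoter windows were available for 27 of the 34 genes and were searched on both strands, from 250 bases before to 50 after the start site, for 3 motifs. Scd1, Scd2, Sqle, Stard4, Fdft1, Fdps and Fads1 had no window and were not searched. The sequences below show the 250 bases before the start of 2 sterol enzymes (Hmgcs1 and Idi1), of the regulator Insig1 and of the desaturase Fads2, whose MYC level differed the other way in VP. They are RefSeq sequences of assembly GRCm38.p6, written 5′ to 3′ on the gene's strand, at chr13:119690101-119690350 (+), chr13:8885356-8885605 (+), chr5:28071162-28071411 (+) and chr19:10101504-10101753 (-). Capitals mark CACGTG (the E-box bound by MYC with MAX), CCAAT or its reverse complement ATTGG, and TCACNCCAC (a sterol regulatory element core).
Hmgcs1: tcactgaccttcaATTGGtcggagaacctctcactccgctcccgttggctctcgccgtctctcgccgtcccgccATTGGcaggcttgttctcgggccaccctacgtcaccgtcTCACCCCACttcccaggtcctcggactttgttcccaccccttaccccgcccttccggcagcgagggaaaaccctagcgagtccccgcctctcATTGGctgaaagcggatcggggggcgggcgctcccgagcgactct
Idi1: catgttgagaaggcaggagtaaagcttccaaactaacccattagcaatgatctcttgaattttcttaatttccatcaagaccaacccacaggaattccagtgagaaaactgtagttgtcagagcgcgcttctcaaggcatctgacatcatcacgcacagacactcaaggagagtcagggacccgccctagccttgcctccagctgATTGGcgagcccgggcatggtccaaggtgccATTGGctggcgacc
Insig1: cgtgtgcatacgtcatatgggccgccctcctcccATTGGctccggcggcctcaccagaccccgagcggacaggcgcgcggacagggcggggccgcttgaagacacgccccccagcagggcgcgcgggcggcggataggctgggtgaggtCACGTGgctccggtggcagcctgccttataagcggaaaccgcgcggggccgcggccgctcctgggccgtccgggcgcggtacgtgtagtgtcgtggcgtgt
Fads2: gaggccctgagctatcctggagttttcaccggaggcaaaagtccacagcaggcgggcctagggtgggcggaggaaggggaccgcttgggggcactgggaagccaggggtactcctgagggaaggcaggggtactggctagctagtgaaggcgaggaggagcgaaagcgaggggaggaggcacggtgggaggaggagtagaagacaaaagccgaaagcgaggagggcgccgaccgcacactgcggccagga
The 27 genes had 34 windows, since some have more than 1 start site. The CCAAT letters occurred in a window of 22 of the 27 genes (81.5%), against 41.1% of all 27025 genes, and in 67.6% of the 34 windows, against 37.4% of all windows. These 27025 are all genes with a window, expressed here or not, and so differ from the filtered genes behind the expression shares. CACGTG occurred in a window of 6 of the 27 genes (22.2%, against 8.09% of all), namely Dhcr7, Elovl5, Hsd17b7, Insig1, Sc5d and Scap. Among the genes searched, the sterol regulatory element core was found at Hmgcs1 only, at position -137 from the start (1 of 27, or 3.7%, against 1.44% of all). None of the 3 was found for Fads2, which says only that these letters were not in its window.

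The first comparison is the order of the lobes in the WT mouse. The sterol branch was highest in WT VP for 14 of 18 genes and lowest in WT AP for 14 of 18, and its summed level was 116, 165 and 234 FPKM in WT AP, DLP and VP. The fatty acid branch had no such order, with 4, 3 and 3 of its 10 genes highest in AP, DLP and VP. Among all 33 genes, 20 were highest in VP, 9 in DLP and 4 in AP, while 32.1%, 35.3% and 32.6% of all 12361 genes had their highest WT level in VP, DLP and AP. Levels relative to Krt8 and Krt18 gave another order. These luminal keratins were themselves higher in WT VP, by 1.58 (log2) than in DLP and by 1.62 than in AP. The other luminal markers did not all follow. Of the 6, 3 were higher and 3 lower in WT VP, against AP as against DLP. Against AP, Krt19 stood at 0.7, and Cd24a, Epcam and Cdh1 at -0.54, -0.24 and -0.59. Levels relative to the keratins therefore rest on the choice of these markers.

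**Figure D1:**
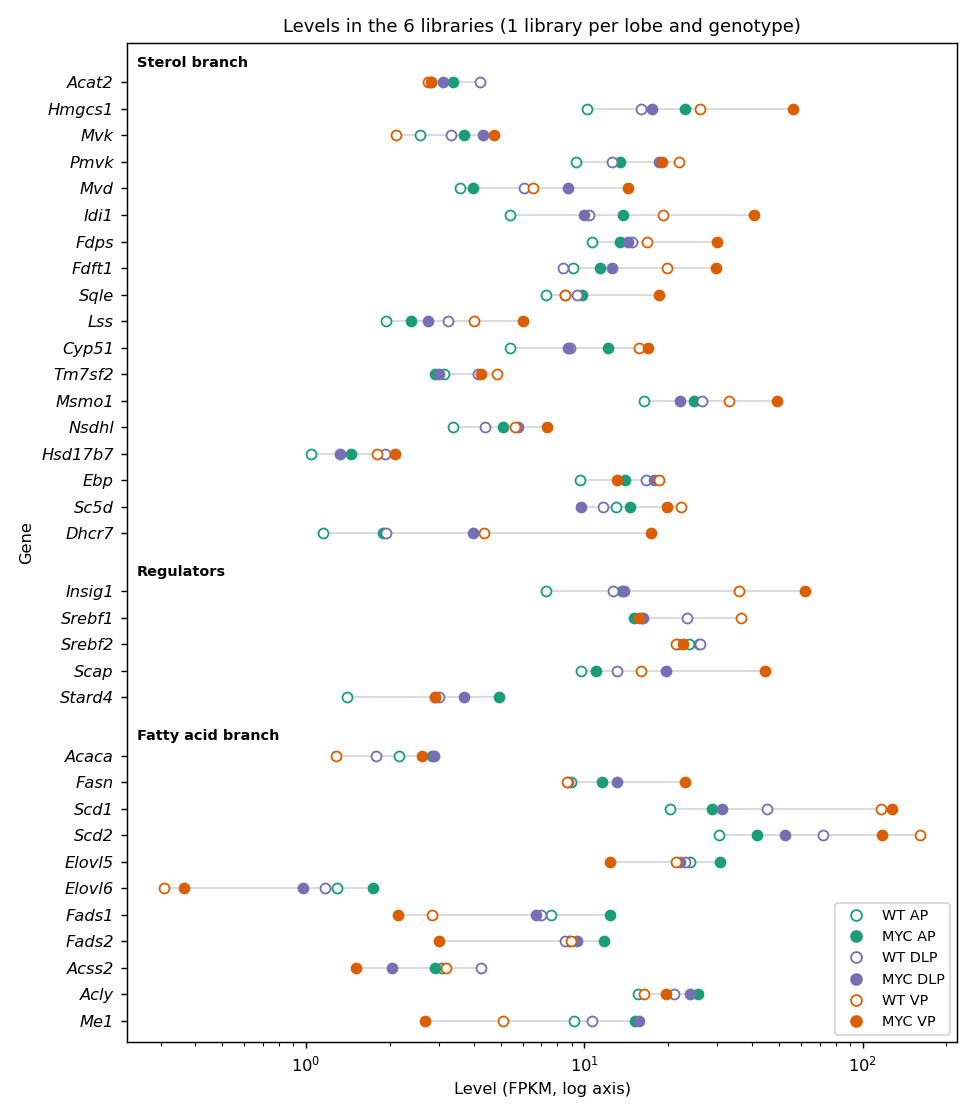
Level of each of the 34 genes (FPKM, log axis) in the 6 libraries, as 1 point per library with no error bar; open points are WT and filled points MYC, coloured by lobe. The highest sterol point is Hmgcs1 in MYC VP (56.1 FPKM), and Scd1 and Scd2 reach 127.6 and 160.3 FPKM.

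Of the 33 genes, 10 were at least 2-fold higher in WT VP than in WT AP on the log2(FPKM + 1) scale (all genes, 7.89%), but none were when levels were taken relative to Krt8 and Krt18. A single gene, the desaturase Fads1, was at least 2-fold lower (all genes, 10.3%). Against WT DLP, 4 of 33 were 2-fold higher in WT VP (Insig1, Scd1, Scd2 and Fdft1; all genes, 2.63%) and Fads1 was again the 1 gene lower (all genes, 6.29%). With size factors these counts were 7 and 0, with equal sums of FPKM 0 were lower, and relative to the keratins they were 0 and 20. WT DLP exceeded WT AP 2-fold for Scd1 and Scd2 (2 of 33; all genes, 3.85%), with 0 of 33 lower (all genes, 1.31%). The median log2 ratio of the sterol branch was 0.75 for VP against AP, 0.27 for VP against DLP and 0.45 for DLP against AP, where all genes gave -0.01, -0.13 and 0.10. Relative to the keratins, the first of these turned to -0.59 and the second to -0.98.

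The stearoyl-CoA desaturases, which place the double bond in oleate and palmitoleate, had the largest ratios of WT VP to WT AP among the 33 genes. Scd1 measured 20.3, 45.5 and 116.2 FPKM in WT AP, DLP and VP, and 28.9, 31.1 and 127.6 FPKM in the MYC libraries of these lobes. Scd2 measured 30.4, 72.2 and 160.3 FPKM in the WT lobes and 41.6, 52.5 and 117.0 FPKM in the MYC lobes. In WT VP, Scd1 was 5.72-fold its AP level (interval 5.48 to 5.96) and Scd2 5.27-fold (5.10 to 5.44). Relative to the keratins the excess over DLP turned to a deficit for both, with log2 ratios of -0.22 and -0.42. Together they made up 38.6%, 57.8% and 80.2% of the summed FPKM of the fatty acid branch in WT AP, DLP and VP. Without them the branch summed to 80.5, 86.0 and 68.0 FPKM, so that its rise from AP to VP (131, 204 and 344 FPKM) rested on this pair. They are neighbouring paralogs on chromosome 19, and reads in near-identical stretches could be split between them.

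Fads1, the front-end desaturase of polyunsaturated fatty acids, had the opposite order. It measured 7.56, 6.97 and 2.84 FPKM in WT AP, DLP and VP, and 12.3, 6.71 and 2.15 FPKM in the MYC lobes. The WT VP level was 0.375 times that of AP (interval 0.332 to 0.424). Elovl6, which elongates palmitate to stearate and did not pass the filter, stood at 1.29, 1.17 and 0.310 FPKM in the WT lobes. Fasn, the fatty acid synthase, had no lobe difference beyond counting error in the WT mouse, with 8.97, 8.74 and 8.66 FPKM in AP, DLP and VP (VP to AP 0.965, interval 0.886 to 1.05).

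**Figure D2:**
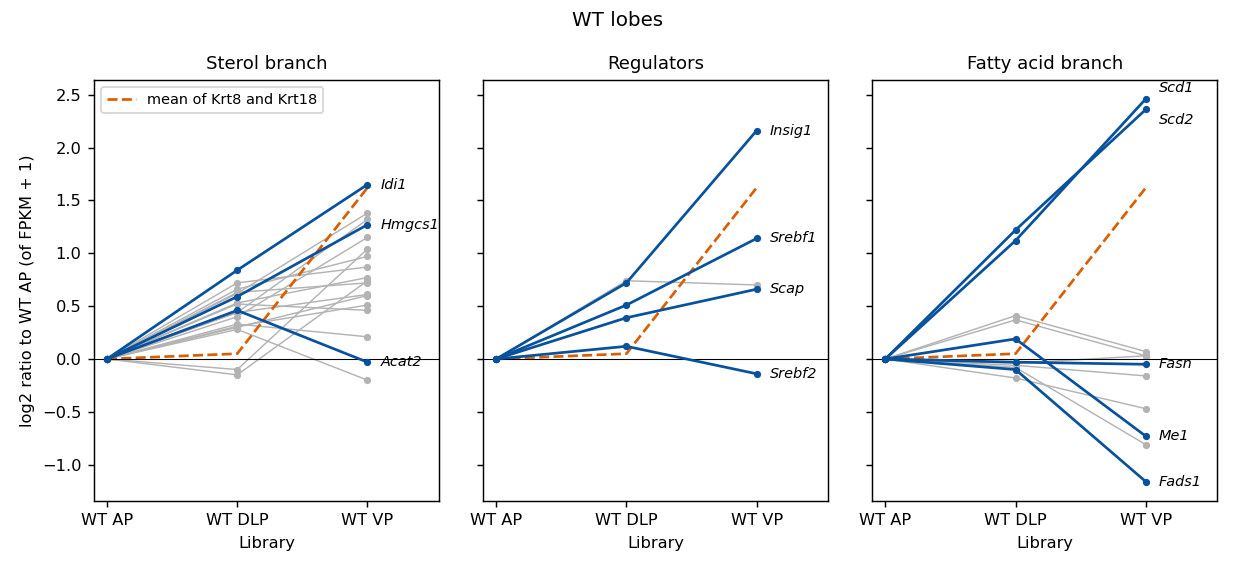
log2 ratio of each WT lobe to WT AP, of FPKM + 1, with 1 line per gene, 1 panel per branch and the mean of Krt8 and Krt18 dashed; lines only join the points of a gene, and the lobes have no natural order. Scd1 (2.46), Scd2 (2.36), Insig1 (2.16) and Idi1 (1.65) lie above the keratin line (1.62) in VP, and the other genes lie below it. When FPKM are divided by the keratins before 1 is added, 20 of the 25 genes above 0 in VP turn below 0, and Dhcr7 stays above it.

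The next comparison is MYC against WT within each lobe. In VP, sterol genes were mostly higher in MYC and fatty acid genes mixed, in AP both branches were mostly higher, and in DLP both lay around 0. The sterol branch had median log2 ratios of 0.39, -0.04 and 0.52 in AP, DLP and VP, with 17, 8 and 14 of 18 genes above 0. With equal sums of FPKM its VP median was 0.31, or 0.27 without the 20 highest genes in the sums, and relative to the keratins its DLP median was -0.26. The fatty acid branch had 0.41, 0.04 and -0.37, with 9, 5 and 4 of 10 genes above 0, and its DLP median turned to -0.17 relative to the keratins and to -0.10 with libraries scaled to equal totals without the 20 highest genes, and its VP median to 0.13 with a minimum mean of 10 FPKM. The VP median was -0.13 relative to the keratins, -0.57 with equal sums and -0.60 without the 20 highest genes in them. With size factors the AP median was 0.27 for each branch and -0.00 for all genes. All 12361 genes had medians of 0.13, 0.03 and 0.04 as deposited, with 66.4%, 53.5% and 53.2% above 0. The difference between the branch medians was thus 0.89 in VP, and -0.02 and -0.08 in AP and DLP. At a minimum mean of 10 FPKM the VP difference was 0.43. The branches were not tested against each other, since their genes are not replicates of a condition.

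**Figure D3:**
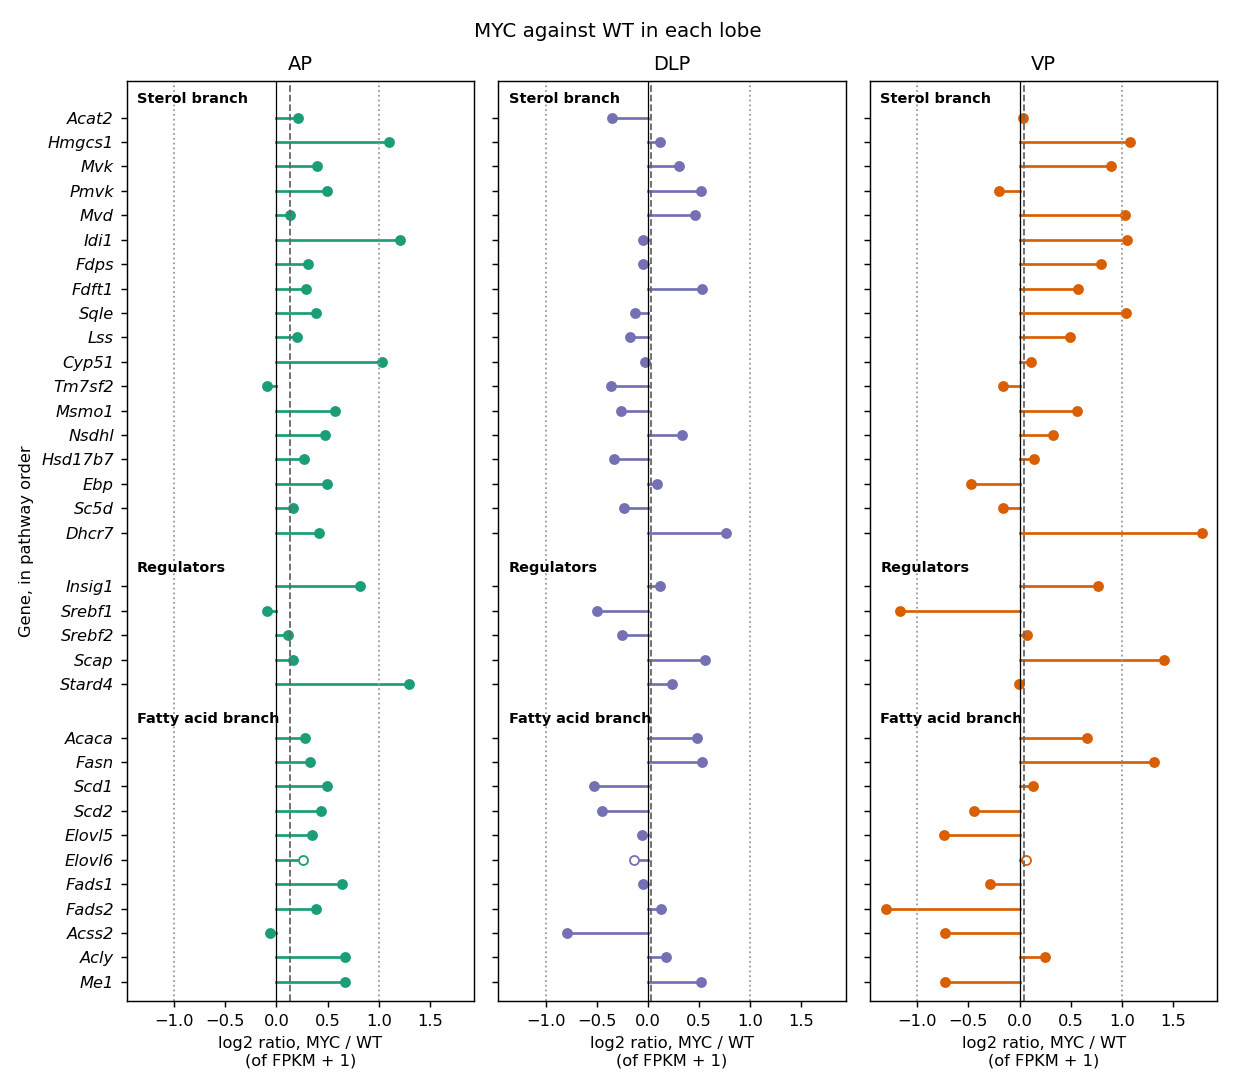
log2 ratio of MYC to WT, of FPKM + 1, for each gene in AP, DLP and VP; dotted lines mark 2-fold, the dashed line the median of all genes tested, and the open point is Elovl6, which did not pass the filter. In VP the sterol genes reach 1.78 (Dhcr7) while Srebf1 (-1.17) and Fads2 (-1.31) lie past 2-fold on the lower side, and in DLP every point lies within 2-fold.

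In VP, 7 of 33 genes were at least 2-fold higher in MYC (all genes, 6.88%) and 2 of 33 at least 2-fold lower (all genes, 5.95%). With the libraries brought to equal size factors, 3 of the 7 remained past 2-fold, namely Dhcr7, Scap and Fasn, and the other 4 lay between 0.94 and 0.98 (log2). In DLP, 0 of 33 genes were past 2-fold in either direction (all genes, 6.46% higher and 3.39% lower). In AP, 4 of 33 were higher in the library labelled MYC AP (all genes, 2.05%), namely Hmgcs1, Idi1, Cyp51 and Stard4, and 0 of 33 were lower (all genes, 0.599%). Of these 4, Idi1 and Stard4 remained past 2-fold with size factors. Across the 3 lobes, 11 of 33 genes were higher in MYC in all of them (33.3%; all genes, 29.9%) and 3 of 33 were lower in all (9.1%; all genes, 14.0%).

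Among the early steps of the sterol branch, Hmgcs1 and Idi1 had the same pattern of change. Hmgcs1, which makes HMG-CoA from acetoacetyl-CoA, measured 10.2, 15.9 and 26.0 FPKM in WT AP, DLP and VP, and 23.0, 17.4 and 56.1 FPKM in the MYC lobes. The log2 ratios of MYC to WT for this gene were 1.10, 0.12 and 1.08 in these lobes, with no counting interval because no transcript length was at hand. Idi1, the isomerase of isopentenyl diphosphate, measured 5.39, 10.4 and 19.1 FPKM in the WT lobes and 13.8, 10.01 and 40.5 FPKM in the MYC lobes. Both were about equal in the DLP libraries and far apart in AP and VP. The Idi1 level was 2.56-fold that of WT in the library labelled MYC AP (interval 2.29 to 2.87), 0.960-fold in DLP (0.882 to 1.05) and 2.12-fold in VP (2.02 to 2.23).

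Between them in the pathway lie Mvk, Pmvk and Mvd, which phosphorylate and decarboxylate mevalonate. Mvd, the decarboxylase, measured 3.57, 6.06 and 6.53 FPKM in the WT lobes and 3.99, 8.71 and 14.4 FPKM in the MYC lobes. Its excess in MYC was smallest in AP (1.12-fold, interval 0.909 to 1.37) and largest in VP (2.2-fold, 1.98 to 2.46). Pmvk, the phosphomevalonate kinase, measured 9.32, 12.6 and 21.9 FPKM in the WT lobes and 13.5, 18.5 and 19.0 FPKM in the MYC lobes, so that its lobe difference was large in WT and small in MYC. Relative to the keratins its WT VP excess over AP turned to -0.36 (log2). Mvk lay inside the 2-fold limit in VP on the log2(FPKM + 1) scale, at 0.89, while its FPKM ratio was 2.25 (interval 1.79 to 2.87).

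Squalene is made by Fdft1 and oxidised by Sqle, the entry into the sterol-specific part of the route. Fdft1 measured 9.12, 8.41 and 19.7 FPKM in the WT lobes and 11.3, 12.6 and 29.7 FPKM in the MYC lobes, highest in VP in both mice, though the WT VP ratios to DLP and AP turned to -0.31 and -0.47 (log2) relative to the keratins. Its span overlaps that of Ctsb in the annotation, and the strand setting of the counting is not given in the sources used here. Sqle measured 7.26, 9.39 and 8.55 FPKM in the WT lobes, close together, and 9.84, 8.52 and 18.6 FPKM in the MYC lobes. Its MYC VP library stood furthest apart, at 2.17-fold its WT counterpart (interval 2.02 to 2.34). In AP the ratio was 1.36 (1.22 to 1.51), and in DLP 0.907 (0.826 to 0.995).

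The conversion of lanosterol to cholesterol occupies the rest of the branch. Cyp51, the lanosterol demethylase, measured 5.42, 8.90 and 15.7 FPKM in the WT lobes and 12.2, 8.70 and 17.0 FPKM in the MYC lobes. The library labelled MYC AP differed from WT AP (2.24-fold, interval 1.93 to 2.61), and in VP the interval included equality (1.08-fold, 0.997 to 1.17). Dhcr7, the reductase that turns 7-dehydrocholesterol into cholesterol, measured 1.15, 1.93 and 4.36 FPKM in the WT lobes and 1.89, 3.97 and 17.4 FPKM in the MYC lobes. It was the member with the largest VP ratio, at 3.98-fold (3.42 to 4.64), and it was also higher in MYC in DLP (2.06-fold, 1.58 to 2.7) and AP (1.63-fold, 1.07 to 2.51). The DLP value fell inside 2-fold on the log2(FPKM + 1) scale (0.76), which understates changes of low genes. Across Lss, Tm7sf2, Msmo1, Nsdhl, Hsd17b7, Ebp and Sc5d, VP log2 ratios ran from -0.47 (Ebp) to 0.56 (Msmo1), and Acat2 and Fdps, earlier in the branch, stood at 0.03 and 0.80.

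Within the MYC mouse, VP exceeded the other lobes for 16 of 18 sterol genes (all genes, 37.8%). Against MYC DLP, 11 of 33 genes were at least 2-fold higher in MYC VP (all genes, 3.54%) and 3 of 33 at least 2-fold lower (all genes, 14.0%). The 3 lower genes were Fads1, Fads2 and Me1, all of the fatty acid branch, at -1.29, -1.38 and -2.18 (log2). The higher ones included 7 sterol enzymes, Insig1 (2.09), Scap (1.14), Scd1 (2.0) and Scd2 (1.14). Krt8 and Krt18 were themselves 1.08 (mean log2) higher in MYC VP than in MYC DLP. Relative to them, 1 of 33 genes was higher and 8 of 33 were lower, and the median of the sterol branch went from 0.90 to -0.08. This comparison uses the same MYC libraries as those with WT and is no separate evidence for them.

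The regulators did not share a direction. Insig1, which retains the SREBP and Scap complex in the endoplasmic reticulum, measured 7.30, 12.7 and 36.0 FPKM in the WT lobes and 13.6, 13.9 and 62.3 FPKM in the MYC lobes. WT VP stood at 4.93 times WT AP (interval 4.48 to 5.44), and its excess over DLP turned to -0.06 (log2) relative to the keratins. The MYC level exceeded that of WT in VP 1.73-fold (1.66 to 1.80) and in AP 1.87-fold (1.68 to 2.08). Scap, the escort protein, measured 9.74, 13.1 and 16.0 FPKM in the WT lobes and 11.01, 19.6 and 44.4 FPKM in the MYC lobes. Its ratio of MYC to WT was 1.13 in AP (0.930 to 1.37), 1.51 in DLP (1.31 to 1.73) and 2.77 in VP (2.49 to 3.08).

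Srebf1 and Srebf2, which encode the transcription factors themselves, differed from each other. Srebf1 measured 16.1, 23.4 and 36.7 FPKM in the WT lobes and 15.1, 16.2 and 15.7 FPKM in the MYC lobes. The VP excess of WT over AP, which turned to -0.41 (log2) relative to the keratins, was absent from the MYC libraries, and the ratio of MYC to WT was 0.939 in AP (interval 0.854 to 1.03), 0.693 in DLP (0.640 to 0.751) and 0.428 in VP (0.399 to 0.459). Srebf2 measured 23.8, 26.0 and 21.4 FPKM in the WT lobes and 25.8, 21.8 and 22.6 FPKM in the MYC lobes, the narrowest range among the regulators. The FPKM ratio of Srebf1 to Srebf2 was 0.675, 0.899 and 1.71 in WT AP, DLP and VP, and 0.585, 0.744 and 0.695 in the MYC lobes. The table does not separate the Srebf1 isoforms, and the span of Srebf1 overlaps that of Rai1. Stard4, a carrier of cholesterol between membranes, measured 1.41, 3.01 and 2.91 FPKM in the WT lobes and 4.94, 3.71 and 2.90 FPKM in the MYC lobes. It stood apart in the library labelled MYC AP, at 3.50-fold WT (interval 2.69 to 4.70), and was equal in VP within counting error (0.995-fold, 0.823 to 1.2).

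In the fatty acid branch, Acaca and Fasn, which build palmitate, were higher in MYC VP, while Fads2, which acts on dietary polyunsaturated fatty acids, was lower. Acly, which supplies acetyl-CoA from citrate, measured 15.6, 21.1 and 16.4 FPKM in the WT lobes and 25.6, 23.9 and 19.7 FPKM in the MYC lobes, with its largest ratio in AP (1.63-fold, interval 1.52 to 1.76). Acaca, the acetyl-CoA carboxylase, measured 2.16, 1.79 and 1.28 FPKM in the WT lobes and 2.84, 2.89 and 2.61 FPKM in the MYC lobes. It was higher in MYC in AP (1.32-fold, 1.13 to 1.55), DLP (1.62-fold, 1.40 to 1.88) and VP (2.03-fold, 1.74 to 2.38), though its span overlaps that of Tada2a. Fasn measured 11.5, 13.1 and 22.9 FPKM in the MYC lobes, above the WT values given earlier in every lobe. The Fasn ratio was 1.29 in AP (1.18 to 1.40), 1.5 in DLP (1.40 to 1.61) and 2.65 in VP (2.49 to 2.82).

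Fads2, which starts the conversion of linoleate to arachidonate, measured 8.77, 8.49 and 8.95 FPKM in the WT lobes, all alike. In the MYC lobes it measured 11.8, 9.40 and 3.01 FPKM, with a VP ratio of 0.336 (interval 0.281 to 0.402). The desaturases of saturated chains differed less. Scd2 was 0.730-fold WT in MYC VP (0.719 to 0.742), Scd1 1.10-fold (1.08 to 1.12), and both were lower in MYC DLP, at 0.728-fold (0.710 to 0.746) and 0.685-fold (0.662 to 0.709). Of the remaining genes, Elovl5, Acss2 and Me1 had VP log2 ratios of -0.74, -0.73 and -0.73. Acss2, which makes acetyl-CoA from acetate, was lower in MYC by similar ratios in DLP (0.477-fold, 0.388 to 0.584) and VP (0.478-fold, 0.382 to 0.595), inside 2-fold on the log2(FPKM + 1) scale. Summed over the branch, levels in the MYC lobes were 185, 180 and 312 FPKM, and those of the sterol branch 175, 173 and 352 FPKM.

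Markers of other cell types moved between the same libraries. The 12 hematopoietic markers summed to 221, 105 and 50.5 FPKM in WT AP, DLP and VP and to 219, 458 and 270 FPKM in the MYC lobes, with 6, 12 and 11 of 12 higher in MYC. The 8 fibroblast markers summed to 1250, 1360 and 680 FPKM in WT and to 1430, 749 and 209 FPKM in MYC, with 7, 3 and 1 of 8 higher. Dcn made up most of these sums. The other 7 summed in AP to 194 (WT) and 431 FPKM (MYC), in DLP to 205 (WT) and 295 FPKM (MYC), and in VP to 97.3 (WT) and 52.8 FPKM (MYC). The 8 smooth muscle markers summed to 601 and 497 FPKM in WT DLP and VP and to 357 and 289 FPKM in the MYC lobes, with 0 of 8 higher in either, and 7 of 8 were higher in the library labelled MYC AP. The 6 luminal markers ran from 2390 to 4440 FPKM over the 6 libraries, and Krt8 and Krt18 differed between MYC and WT by -0.17, 0.23 and -0.26 (mean log2) in AP, DLP and VP. The 4 basal markers summed to 1340, 918 and 407 FPKM in WT and to 859, 1290 and 278 FPKM in MYC, with 2, 4 and 0 of 4 higher. The 7 endothelial markers summed to 172, 126 and 26.8 FPKM in WT and to 186, 143 and 28.8 FPKM in MYC, with 6, 5 and 4 of 7 higher. Adipocyte markers summed to between 36.2 and 86.3 FPKM, nearly all from Fabp4 (27.2 to 64.8) and Lipe (8.18 to 21.0), while Adipoq, Cidec, Plin1 and Lep were at or near 0. Relative to the keratins, 11 of the 13 values past 2-fold between MYC and WT remained so, none changed direction, and Srebf1 and Fads2 in VP came to -0.89 and -0.95 (log2). The part of the other cell types in these differences was not tested.

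**Figure D4:**
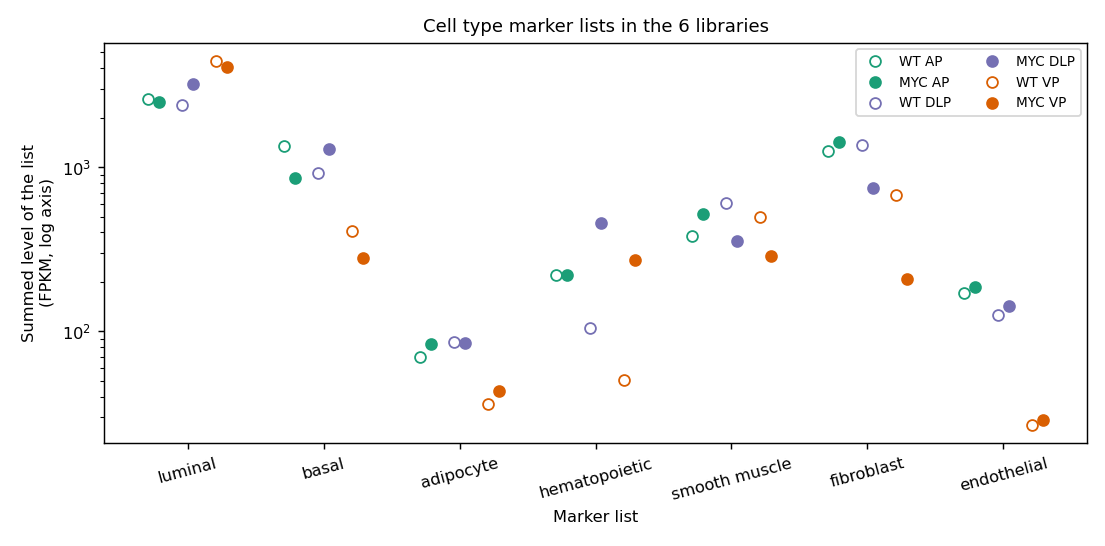
Summed level (FPKM, log axis) of each cell type marker list in the 6 libraries, 1 point per library, open for WT and filled for MYC, coloured by lobe. Hematopoietic markers are higher in MYC in DLP (105 and 458) and VP (50.5 and 270), and fibroblast sums lower (1360 and 749, 680 and 209), in DLP through Dcn, without which they are 205 and 295.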

How the data were processed

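Per the labels and the study's methods, polyA RNA was sequenced as single-end reads with a stranded kit. The submitters' processing notes name bcl2fastq 2.18, STAR, Cufflinks and build mm10, and the gene annotation is not given in the sources used here. The authors deposited 1 table of FPKM for the 6 libraries, whose columns repeat the sample titles. Totals ran from 374085 to 483143 FPKM per library and fractional values were frequent, so no count model was run, although the methods speak of read counts.

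Ratios were log2((FPKM + 1) / (FPKM + 1)) for the 12361 genes averaging 1 FPKM or more, called at 2-fold. Groups of 1 library allow no p-value. Reads behind a value were estimated from transcript lengths (found for 33 of 34 genes, 1 under an older symbol) and a depth per library. A length was the mean over all transcripts of a gene, short ones included, in a GENCODE annotation of an older build. Where the expressed transcript is longer or shorter than this mean, reads and interval widths are misjudged. The depth was recovered from genes under 0.3 FPKM whose values fall in steps of 1 read. In the libraries, 43.8% to 51.9% of these values lay within 0.03 of a whole read. The recovery was also run on simulated reads made with the same lengths, which cannot test those lengths or the depths of these libraries. Depths were 25.4 to 50 M reads. Coordinates and promoters are from RefSeq on GRCm38.p6, the assembly named mm10, matched by symbol.

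Values in all 6 libraries are given for genes past 2-fold between MYC and WT in a lobe or between WT lobes, and for Hmgcs1, Sqle, Insig1, Srebf1, Srebf2, Acaca, Fasn, Scd1, Scd2 and Acly. Genes of other lists are named when past 2-fold the same way in VP and DLP, at most 3 per list and direction. The genes, lists and rules were chosen with earlier results of these data known. Other settings tried were median-of-ratios size factors, FPKM scaled to equal totals with and without the 20 highest genes, ratios to Krt8 and Krt18, a pseudocount of 0.1, no filter, a minimum mean of 10 FPKM and a 4-fold threshold. Some genes of the pathway are not reported here. Scripts ran under Python 3.11.15 with scipy 1.17.1, pandas 2.3.3 and numpy 2.4.6, and figures were drawn with matplotlib 3.10.9.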

Additional observations from a re-analysis of the deposited data

Results flagged for a closer look

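For 5 genes, MYC and WT differed in opposite directions in 2 lobes, each beyond counting error and with log2 ratios at least 1 apart as deposited. The difference between lobes was not tested, since each lobe and genotype is 1 library. For Sqle, the squalene epoxidase, the VP and DLP ratios were 1.16 apart (1.04 and -0.13), and 0.99 apart with equal sums of FPKM. For Scd1, the AP and DLP ratios were 1.02 apart (0.49 and -0.53), and 0.93 apart with size factors. For Elovl5, an elongase of polyunsaturated fatty acids, the AP and VP ratios were 1.09 apart (0.35 and -0.74), and 0.98 apart relative to Krt8 and Krt18. For Fads2, the AP and VP ratios were 1.70 apart (0.39 and -1.31). For Me1, the malic enzyme that supplies NADPH, the AP and VP ratios were 1.41 apart (0.67 and -0.73), with 9.15 and 15.2 FPKM in WT AP and the library labelled MYC AP, and 5.11 and 2.68 FPKM in WT VP and MYC VP. Me1 also had opposite directions without the AP library. Its log2 ratio in DLP was 0.52 (1.48-fold, interval 1.38 to 1.58), while in VP it was 0.524-fold (0.46 to 0.596). In 4 of these 5 genes the library labelled MYC AP takes part, which had no excess of Myc and held seminal vesicle transcripts, and the part of these in the values was not tested.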

How the results depend on the processing

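No paired analysis was possible because each group is 1 library and the lobes of a genotype come from 1 mouse, so that they are not replicates of it, and no library could be left out of a group. With size factors, 2 genes were 2-fold higher in MYC in AP and 3 in VP, 7 were higher in WT VP than in DLP with 0 lower, and 1 was higher in WT DLP than in AP. With equal sums of FPKM, 3 genes were higher in MYC VP, 0 were lower in WT VP than in DLP, and 1 was higher in WT DLP than in AP. Without the 20 highest genes in these sums, the first counts were again 3 and 0. The all-gene median of MYC against WT in VP, 0.04 as deposited, lay between -0.18 and 0.23 under the scalings. Relative to Krt8 and Krt18, 1 gene was 2-fold lower in MYC DLP and 0 in MYC VP, WT VP had 0 higher and 20 lower genes against DLP, and 0 higher and 12 lower against AP. All 20 members above 0 against DLP and 20 of the 25 above 0 against AP turned below 0. Among those past 2-fold these were, against DLP, Fdft1 (-0.31), Insig1 (-0.06), Scd1 (-0.22) and Scd2 (-0.42), and, against AP, Hmgcs1 (-0.26), Pmvk (-0.36), Fdft1 (-0.47), Cyp51 (-0.08) and Srebf1 (-0.41). With a pseudocount of 0.1, MYC DLP had 1 gene higher and 1 lower, WT VP had 2 lower than DLP, and the sterol minus fatty acid difference of medians was 0.99 for MYC in VP, 0.90 for WT VP against AP and 0.52 for WT DLP against AP. Without a filter the last was 0.48. With a minimum mean of 10 FPKM that difference was 0.43 for MYC in VP, 0.73 for WT VP against DLP, 0.93 against AP and 0.11 for WT DLP against AP, 1 gene was 2-fold lower in MYC VP, and 0 were lower in WT VP than in DLP or AP. At 4-fold, 3 genes were higher in WT VP than in AP, 2 were higher and 1 lower in MYC VP than in MYC DLP, and 0 were past the threshold in the other comparisons. For MYC VP against MYC DLP the alternatives were added after seeing the data. Relative to the keratins it had 1 gene higher and 8 lower, Fdps turned to -0.02 and the branch difference was 1.01, against 1.17 as reported. That difference was 1.33 with a pseudocount of 0.1, and 0.26, with 0 genes lower, at a minimum mean of 10 FPKM. Of the 13 values past 2-fold between MYC and WT, 7 remained with size factors, 9 with equal sums, 8 with equal sums without the 20 highest genes and 13 with the smaller pseudocount, and none changed direction under any alternative. Fewer genes were tested at 10 FPKM, and otherwise the cause was not tested. Genes with few reads in WT AP, the shallowest library, are the least precise.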

Other observations

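None of the 15 measured fatty acid oxidation genes, the 10 genes of isoprenoid, dolichol and ubiquinone synthesis, the 8 genes of SREBP processing and transport or the 14 other fatty acid and NADPH genes was past 2-fold between MYC and WT in any lobe on the log2(FPKM + 1) scale, where all genes had 2.05% higher and 0.599% lower in AP, 6.46% and 3.39% in DLP, and 6.88% and 5.95% in VP. By FPKM alone, Elovl1 in VP (20.9 and 42.6), Hacd3 in DLP (5.998 and 12.4) and Thrsp in VP (0.0225 and 0.136), named after their values were seen, lay past it. Their median log2 ratios in AP, DLP and VP were 0.48, 0.18 and 0.04 for oxidation, 0.11, -0.13 and 0.10 for isoprenoids, 0.01, -0.16 and -0.10 for SREBP processing, and 0.17, 0.10 and 0.13 for the others. All genes had 0.13, 0.03 and 0.04. G6pdx, which makes NADPH, was named after its values were seen and had ratios of 0.66, 0.68 and 0.57.

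Apoe and Plin2 were past 2-fold the same way in VP and DLP. Apoe, the lipoprotein of cholesterol export, measured 706.8, 592.3 and 247.5 FPKM in WT AP, DLP and VP and 590.4, 1846 and 844.0 FPKM in the MYC lobes, with log2 ratios of -0.26, 1.64 and 1.77. Plin2, the coat protein of lipid droplets, measured 12.6, 7.65 and 3.30 FPKM in the WT lobes and 12.1, 26.9 and 16.9 FPKM in the MYC lobes, with ratios of -0.05, 1.69 and 2.05. Both are also expressed by macrophages, and hematopoietic markers such as Lyz2 (11.8 to 131.6 FPKM in DLP, 7.82 to 109.5 in VP, WT to MYC) differed the same way in the same lobes. Their part in these values was not tested. Of the 12 sterol export genes measured, 2 were at least 2-fold higher and 0 lower in DLP (all genes, 6.46% and 3.39%), and 2 were higher and 1 lower in VP (all genes, 6.88% and 5.95%). Plin2 was the 1 gene past 2-fold among the 13 of its list in either lobe. The lower was Mylip, a ubiquitin ligase induced by oxysterols and named after its values were seen, with 15.4, 20.5 and 33.0 FPKM in the WT lobes and 11.8, 10.7 and 5.72 FPKM in the MYC lobes, highest in VP in WT and lowest in VP in MYC.

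The 13 genes of acyl-CoA and triglyceride synthesis had no common lobe order in the WT mouse. Their median log2 ratio of VP was 0.02 against AP, with 7 above 0 and 6 below, and -0.18 against DLP, with 5 above and 8 below. Against AP, 4 of 13 were at least 2-fold higher in VP (all genes, 7.89%) and 1 of 13 lower (all genes, 10.3%). The higher ones were Acsl1 (1.06), Gpam (1.60), Agpat3 (1.18) and Lpin1 (1.84), the lower one was Plin2 (-1.66), and the 5 were named after their values were seen. The keratins Krt8 and Krt18 differed by 1.62 in the same comparison.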
